A study of Homo sapiens with 2 samples.

Results

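Genes of folate one-carbon metabolism and nucleotide synthesis were followed in xenografts of HT-29, an established line of human colon cancer cells, grown under the skin of mice. The set holds 50 genes, chosen by symbol from knowledge of the pathways and with earlier results of these data known. All 50 were found among the 26255 gene symbols measured. RNA was sequenced from 2 tumour samples, 1 for each diet. One came from a NOD SCID mouse group reared on normal food, and the other from a group reared on food without methionine, tryptophan and niacin, both for 2 weeks in the part of the design text that describes the feeding (another part speaks of 3 weeks). All mice were wild-type NOD SCID females bought at 5 weeks of age, a strain without T and B cells, so any effect of the diet that passes through those cells is outside this model. The cells had been cultured in complete medium before they were implanted. The number of tumours behind each library was not given in the sources used here.

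Folate carries one-carbon units that are taken mostly from serine. In mitochondria these units are oxidised to formate, which leaves for the cytosol and there feeds the purine ring, the methyl group of thymidylate and, through methyltetrahydrofolate, the remethylation of homocysteine to methionine. Purines and pyrimidines are then made either from small precursors, the de novo route, or by salvage of free bases and nucleosides, and ribonucleotide reductase turns ribonucleotides into the precursors of DNA. Rapidly dividing epithelial tumours run all of these routes, and fluorouracil acts on them.

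Expression is given as FPKM, fragments scaled by transcript length and by sequencing depth, so levels can be set side by side between genes. Differences between the diets are log2 ratios of depleted to normal diet after 1 FPKM was added to each value, and a negative value means lower on the depleted diet. A gene entered the comparison if the mean of its 2 values was 1 FPKM or more. Since each diet has a single library, no difference could be checked against replicates and no test was possible, so every comparison below is between 2 libraries, in which diet and other differences between the tumours cannot be told apart. The error given with a log2 ratio is a counting standard error (SE) or a 95% counting interval, approximated from library sizes of about 7.17e+06 fragments (normal diet) and 6.93e+06 fragments (depleted diet). It covers the sampling of fragments only, and biological spread between tumours comes on top of it. In these bulk tumours, fewer cells of a type and less RNA per cell cannot be told apart.

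The promoters of 3 members are shown because these were the members with a mean of at least 5 FPKM that were at least 25% higher or at least 20% lower in the depleted-diet library, as described further on. PPAT is transcribed from the minus strand of chromosome 4 and PAICS, the gene of a later purine enzyme, from the plus strand, and the window of PPAT shares 236 bases with 1 of the 3 windows listed for PAICS, so the sequence printed for PPAT (chr4:56435566-56435865, minus strand) also holds most of a PAICS promoter. SLC19A1 lies on chromosome 21 (chr21:45541797-45542096, minus strand) and MTHFD1L on chromosome 6 (chr6:150866236-150866535, plus strand). Sequences and coordinates are those of RefSeq on GRCh38.p14, not of the build of the expression values. Each runs 5′ to 3′ from 250 bases before a transcription start to 50 bases after it. SLC19A1 and MTHFD1L have several listed starts, and the window with the most motif matches is shown. Capitals mark matches on either strand to CACGTG, the E-box that MYC and related factors can bind, to TTTCCCGC or TTTGGCGC, which E2F factors can bind, and to TGATGNAA, a motif of ATF4 and C/EBP dimers.
PPAT: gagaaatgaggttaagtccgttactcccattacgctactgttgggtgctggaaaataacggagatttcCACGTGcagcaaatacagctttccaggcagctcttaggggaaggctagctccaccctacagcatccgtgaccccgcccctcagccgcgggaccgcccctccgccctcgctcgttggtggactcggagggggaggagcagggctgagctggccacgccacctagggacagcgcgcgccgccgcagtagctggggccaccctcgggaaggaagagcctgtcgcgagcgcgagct
SLC19A1: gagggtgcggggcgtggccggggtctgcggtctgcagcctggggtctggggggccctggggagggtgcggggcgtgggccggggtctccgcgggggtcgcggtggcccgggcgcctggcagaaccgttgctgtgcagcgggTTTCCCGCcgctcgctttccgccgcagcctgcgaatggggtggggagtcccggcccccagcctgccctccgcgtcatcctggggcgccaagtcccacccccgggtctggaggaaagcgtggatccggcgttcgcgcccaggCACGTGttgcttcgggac
MTHFD1L: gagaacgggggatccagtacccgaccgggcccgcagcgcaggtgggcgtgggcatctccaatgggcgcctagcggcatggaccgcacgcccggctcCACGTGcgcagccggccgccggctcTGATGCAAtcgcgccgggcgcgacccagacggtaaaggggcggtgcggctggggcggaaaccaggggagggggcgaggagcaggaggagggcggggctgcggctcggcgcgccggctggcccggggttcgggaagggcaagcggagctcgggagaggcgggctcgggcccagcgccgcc

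PPAT held 1 E-box, in the stretch shared with PAICS. The SLC19A1 window held 1 E-box and 1 E2F match, and the MTHFD1L window 1 E-box and 1 ATF4 match. Of the 50 members 43 had at least 1 promoter window. An E-box was found in 10 of these 43 genes (23.3%, against 8.77% of all 27305 genes with a window), an E2F match in 6 (14.0%, against 2.75%) and an ATF4 match in 2 (4.65%, against 4.46%). PPAT and PAICS both count among the 10 genes through the same E-box. By window, which weighs genes by their listed starts, the shares were 18.2% of 66 member windows and 7.26% of all 35116 windows for the E-box, 9.09% and 2.27% for E2F, and 6.06% and 3.62% for ATF4. Overlapping windows of MTHFD1L repeat the same E-box and the same ATF4 match, and make up most of the 4 member windows with an ATF4 match. Such repeats were not removed from the shares of members or of all genes. The background was every gene with a window, neither limited to expressed genes nor matched for base composition, so the shares do not show a trait particular to the members. Neither CAD nor MTHFD2 held any of these letters in its window. The match of letters is a description of the sequence and says nothing on binding in these tumours.

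The members were expressed over a wide range. Of the 50, 6 had a mean of at least 100 FPKM, 28 lay between 10 and 100 FPKM, 13 between 1 and 10 FPKM and 3 under 1 FPKM. NME2, a nucleoside diphosphate kinase, was the highest at 781 FPKM with normal food and 771 FPKM with depleted food, followed by APRT, SHMT2, NME1, IMPDH2 and PAICS. The 3 genes under 1 FPKM were ALDH1L1 (0.383 and 0.332 FPKM) and ALDH1L2 (0.0348 and 0.0724 FPKM), cytosolic and mitochondrial enzymes that burn 10-formyltetrahydrofolate to carbon dioxide, and GLDC, the decarboxylase of the glycine cleavage system, which was listed at 0 in both libraries.

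**Figure D1:**
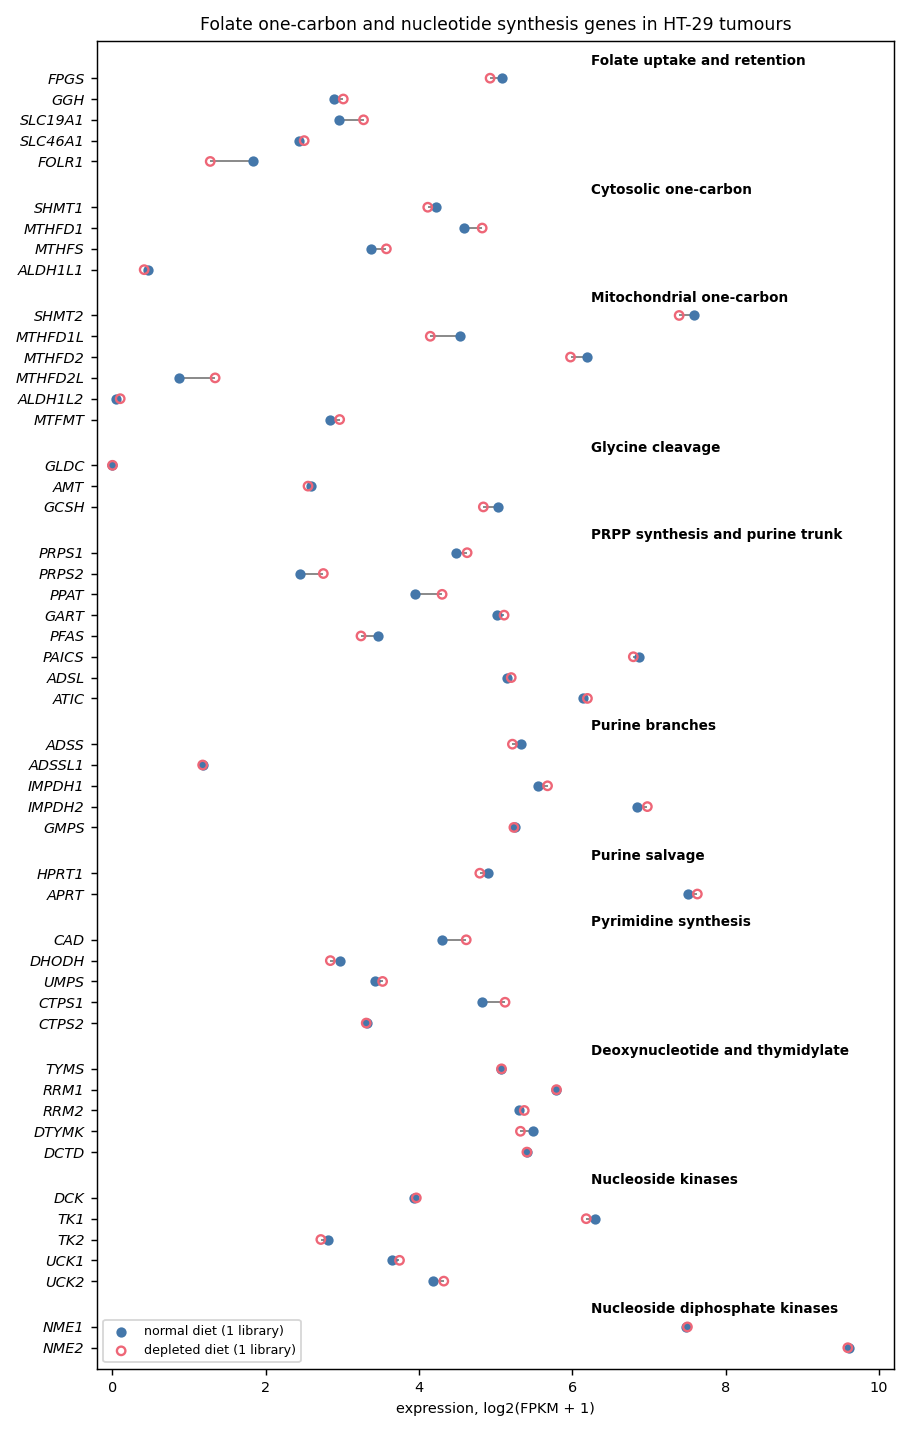
Expression of the 50 genes in each library, grouped by role. The horizontal axis is log2(FPKM + 1), filled points are the normal-diet library and open points the depleted-diet library, with no error bars. The points of most genes nearly coincide, and the level spans from GLDC, listed at 0, to NME2 at 781 and 771 FPKM.

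Differences between the diets were small. Of the 47 members past the filter, 27 were higher and 20 lower in the depleted-diet library, and 57.4% were thus higher against 49.4% of all 12414 genes tested. After scaling both to a common sum of FPKM the split was 32 higher and 15 lower, or 68.1% higher against 58.5% of the 12413 genes then past the filter. The median log2 ratio was 0.03 with quartiles of -0.11 and 0.13, against 0.00 with quartiles of -0.13 and 0.13 over all genes tested. At least 25% higher, on the scale with the pseudocount, were 3 members, MTHFD2L, PPAT and SLC19A1, or 6.38% against 6.94% of all genes. Of these, MTHFD2L passed the filter only through the depleted-diet library, where it was higher, so its call is not independent of the filter. At least 20% lower, the same fold downwards, were 2 members, FOLR1 and MTHFD1L, or 4.26% against 7.15%. No member differed by at least 1.5-fold, which 3.17% of all genes did, or by 2-fold, which 0.894% did. The share of members past either line (10.6%) was below that of all genes (14.1%), so the set did not stand out by the number of differing genes. Just past the upper line lay SLC19A1 at a log2 ratio of 0.33, and just short of it CAD at 0.31, CTPS1 at 0.30 and PRPS2 at 0.30. With a common sum these 3 also passed it, at 0.36, 0.34 and 0.34, giving 6 members higher (12.8%, against 9.01% of all genes on that scale) and 2 lower (4.26%, against 5.62%). With a pseudocount of 5 FPKM 0 were past it as higher and 1 as lower.

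By counting error alone, the 95% interval of the log2 ratio lay above 0 for 7 members and below 0 for 5, or 14.9% and 10.6% of 47, against 14.0% and 14.7% of 11016 protein-coding genes. The 7 higher were MTHFD1, SLC19A1, PPAT, IMPDH2, APRT, CAD and CTPS1, and the 5 lower were SHMT2, MTHFD1L, MTHFD2, PFAS and PAICS. These counts are also near the background of the whole comparison. They hold for the deposited scale, and the intervals were not worked out with a common sum. On that scale the ratios of PAICS and PFAS were nearer to 0, at -0.03 and -0.18, and that of IMPDH1 was further above 0, at 0.17.

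**Figure D2:**
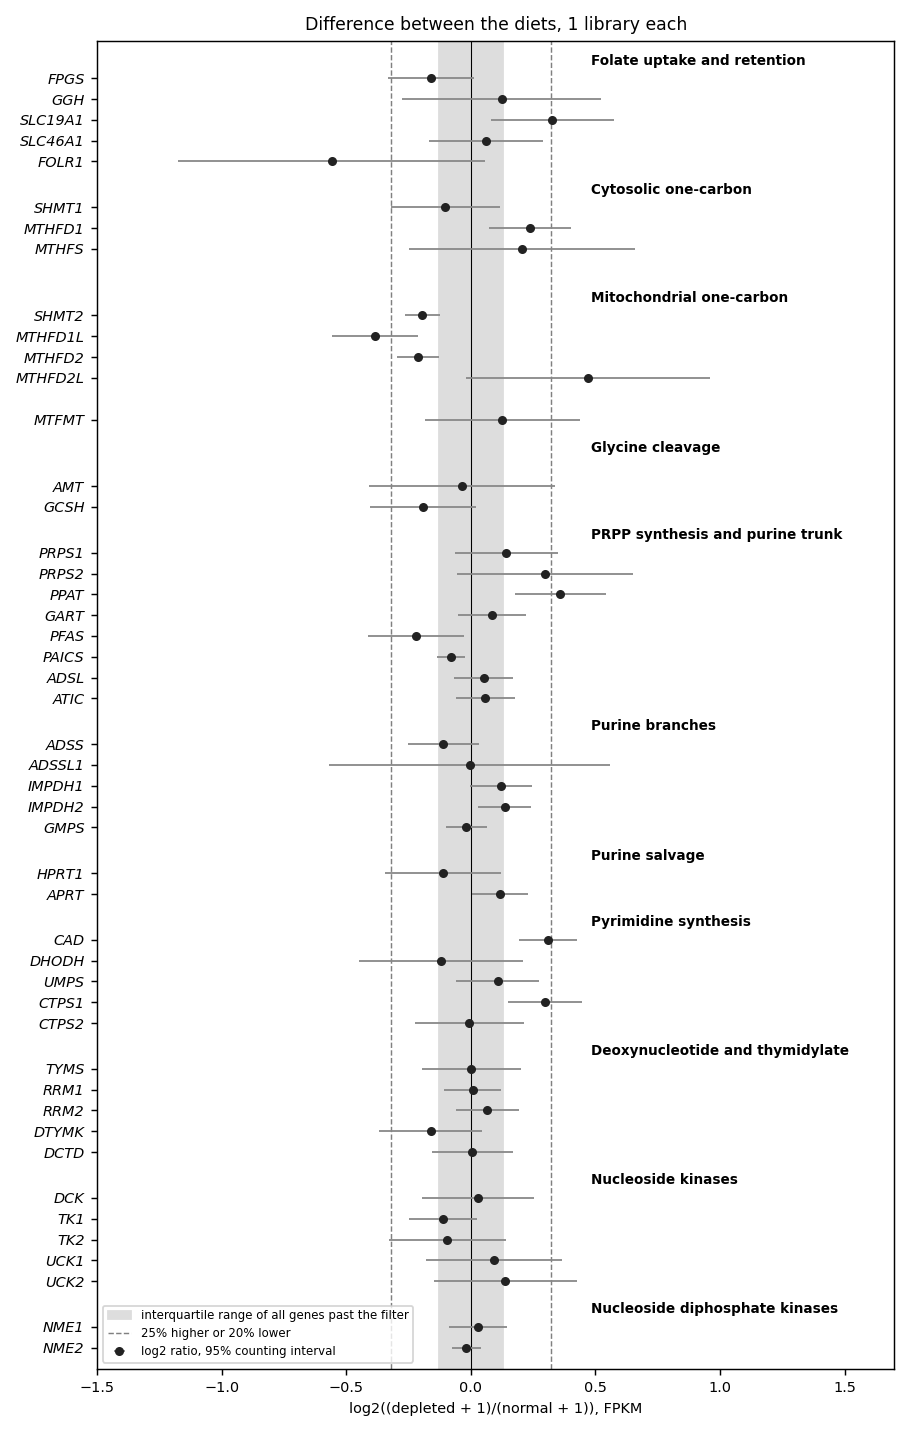
Log2 ratio of depleted to normal diet for the 47 members past the filter, grouped by role. Points are the ratios and bars their 95% counting intervals, the grey band is the interquartile range of all 12414 genes (-0.13 to 0.13) and dashed lines mark 25% higher and 20% lower. PPAT, SLC19A1 and MTHFD2L lie beyond the right line, MTHFD1L and FOLR1 beyond the left.

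Folate uptake and retention had 5 members past the filter. SLC19A1, the reduced folate carrier, was 6.72 FPKM with normal food and 8.68 FPKM with depleted food, a log2 ratio of 0.33 (counting interval 0.08 to 0.57). SLC46A1, the proton-coupled folate transporter, was 4.42 and 4.66 FPKM (0.06, interval -0.17 to 0.29). FOLR1, folate receptor alpha, was low at 2.56 and 1.42 FPKM, or about 24 and 13 fragments, and its ratio of -0.56 had an interval of -1.17 to 0.06. FPGS, which adds the glutamate tail that keeps folate in the cell, was 33.0 and 29.4 FPKM (-0.16, interval -0.33 to 0.01). GGH, the hydrolase that removes the tail, was 6.40 and 7.06 FPKM (0.12, interval -0.28 to 0.52). The median of the group was 0.06, with 3 of 5 members higher.

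Of the 5 members of the mitochondrial one-carbon group past the filter, SHMT2, MTHFD2 and MTHFD1L were lower in the depleted-diet library, and MTHFD2L and MTFMT were higher. SHMT2, which takes the one-carbon unit from serine, was 191 FPKM with normal food and 167 FPKM with depleted food, a log2 ratio of -0.19 (SE 0.04). MTHFD2, the dehydrogenase and cyclohydrolase of the next steps, was 71.9 and 61.9 FPKM (-0.21, SE 0.04). MTHFD1L, the synthetase that releases formate, was 22.1 and 16.7 FPKM (-0.39, SE 0.09). Set against the central 90% of genes of like level, MTHFD1L lay below the range of -0.32 to 0.33 of the 2757 genes between 10 and 20 FPKM. MTHFD2 lay within that of the 934 genes between 50 and 100 FPKM (-0.28 to 0.22), and SHMT2 within that of the 731 genes from 100 FPKM upwards (-0.28 to 0.18). MTHFD2 has 7 pseudogene copies by name, and reads from them cannot be told apart from its own with certainty. SHMT2 overlaps NDUFA4L2 and MTHFD2 overlaps SLC4A5, each on the opposite strand, and the strand setting of the counting was not given.

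The other 2 members of this group had ratios above 0, each with a counting interval that included 0. MTHFD2L, a relative of MTHFD2, was 0.825 and 1.53 FPKM, or about 14 and 24 fragments, with a ratio of 0.47 and an interval of -0.02 to 0.96. It passed the filter only through its depleted-diet value. MTFMT, which formylates the initiator methionyl-tRNA of mitochondria, was 6.14 and 6.80 FPKM (0.13, interval -0.18 to 0.44). With 2 of 5 members higher, the group's median was -0.19 and its mean -0.04. In the glycine cleavage system, GCSH, the lipoyl carrier protein, was 31.7 and 27.6 FPKM (-0.19, interval -0.41 to 0.02) and AMT, the aminomethyltransferase, 5.00 and 4.86 FPKM (-0.03). GCSH has 5 pseudogene copies by name, and 1 of them, GCSHP3, was itself listed at 2.71 and 4.63 FPKM.

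The cytosolic counterparts had other values. MTHFD1, whose single protein carries the synthetase, cyclohydrolase and dehydrogenase activities in the cytosol, was 23.1 FPKM with normal food and 27.3 FPKM with depleted food, a log2 ratio of 0.24 (interval 0.07 to 0.40). SHMT1, the cytosolic serine enzyme, was 17.6 and 16.3 FPKM (-0.10, interval -0.32 to 0.12). MTHFS, which returns 5-formyltetrahydrofolate to the active pool, was 9.32 and 10.9 FPKM (0.20, interval -0.25 to 0.66). MTHFD1 and MTHFD1L stood at nearly equal levels on the normal diet, with MTHFD1 1.04 times as high, and apart on the depleted diet, at 1.64 times. The difference between their log2 ratios was 0.62 (counting interval 0.38 to 0.86), on coding sequences that matched in 65.1% of 2733 aligned bases.

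Synthesis of purines starts from phosphoribosyl pyrophosphate (PRPP) and runs through a long chain of steps to inosine monophosphate. PRPS1 and PRPS2, the PRPP synthetases, were 21.4 and 23.7 FPKM (log2 ratio 0.14) and 4.47 and 5.73 FPKM (0.30, interval -0.06 to 0.65). PPAT, the amidotransferase of the first committed step, was 14.4 FPKM with normal food and 18.7 FPKM with depleted food (0.36, interval 0.18 to 0.54). It lay above the central 90% of genes between 10 and 20 FPKM. The later steps were closer to 0 or lower. GART was 31.5 and 33.5 FPKM (0.08), PFAS, the formylglycinamidine synthase, 10.0 and 8.46 FPKM (-0.22, interval -0.41 to -0.03), ADSL 34.5 and 35.8 FPKM (0.05) and ATIC, which adds the last one-carbon unit, 69.4 and 72.3 FPKM (0.06).

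PPAT and PAICS, which share the promoter region printed above, differed from each other. PAICS was 116 FPKM with normal food and 110 FPKM with depleted food (-0.08, interval -0.13 to -0.02). Its level was 8.08 times that of PPAT on the normal diet and 5.87 times on the depleted diet. The difference between the log2 ratios, PPAT minus PAICS, was 0.44 (counting interval 0.25 to 0.63). PAICS has 7 pseudogene copies by name and PPAT 2, and reads of such copies cannot be told apart from theirs with certainty.

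The branches from inosine monophosphate to AMP and GMP and the salvage enzymes differed little. IMPDH1 and IMPDH2, which commit to GMP, were 46.0 and 50.1 FPKM (0.12) and 114 and 125 FPKM (0.14, interval 0.03 to 0.24). GMPS, the next enzyme, was 37.2 and 36.7 FPKM (-0.02). On the AMP side ADSS was 39.1 and 36.2 FPKM (-0.11), and its relative of muscle, ADSSL1, was at 1.26 FPKM in both libraries. HPRT1, which salvages hypoxanthine and guanine, was 28.9 and 26.7 FPKM (-0.11, interval -0.34 to 0.12), and APRT, which salvages adenine, 181 and 197 FPKM (0.12, interval 0.01 to 0.23). The medians were 0.00 for the 5 branch genes and 0.00 for the 2 salvage genes.

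Pyrimidine synthesis had its 2 highest ratios at its first enzyme and at the step to CTP. CAD, which carries out the first 3 steps, was 18.7 FPKM with normal food and 23.5 FPKM with depleted food, a log2 ratio of 0.31 (SE 0.06). CTPS1, the CTP synthetase needed in proliferating cells, was 27.3 and 33.8 FPKM (0.30, SE 0.08). Both lay above the central 90% of the 2655 genes between 20 and 50 FPKM, which ran from -0.29 to 0.27. DHODH, the mitochondrial enzyme of the pathway, was 6.79 and 6.17 FPKM (-0.12, interval -0.45 to 0.21), UMPS, which completes UMP, 9.70 and 10.5 FPKM (0.11, interval -0.06 to 0.27), and CTPS2 8.96 and 8.92 FPKM (-0.01, interval -0.22 to 0.21). The difference between CTPS1 and CTPS2 was 0.30 (counting interval 0.04 to 0.57). The median of the group was 0.11, with 3 of 5 members higher.

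**Figure D3:**
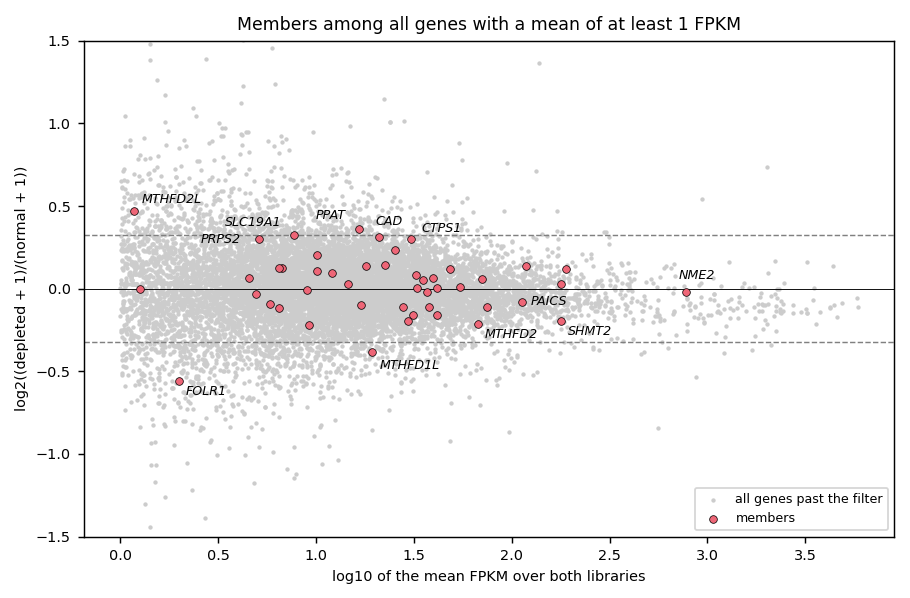
Log2 ratio of depleted to normal diet against the log10 of the mean FPKM for all 12414 genes past the filter (grey) and the 47 members (red). Dashed lines mark 25% higher and 20% lower, and 75 genes beyond 1.5 on the log2 scale are not shown. The members lie within the cloud of all genes, with PPAT, CAD and CTPS1 near its upper edge and MTHFD1L near its lower edge.

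Across the whole set 5 members lay outside the central 90% of genes of like level, PPAT, CAD and CTPS1 above (6.38% against 5.02% of all genes) and FOLR1 and MTHFD1L below (4.26% against 5.03%). This too is near the background.

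Genes of deoxynucleotide and thymidylate synthesis, several of which peak in S phase, differed little between the 2 libraries, DTYMK the most. TYMS, thymidylate synthase and the target of fluorouracil, was 32.7 FPKM on both diets (0.00, interval -0.20 to 0.20). RRM1 and RRM2, the subunits of ribonucleotide reductase, were 54.1 and 54.4 FPKM (0.01, interval -0.11 to 0.12) and 38.6 and 40.4 FPKM (0.07, interval -0.06 to 0.19). DCTD, which makes dUMP from dCMP, was 41.3 and 41.4 FPKM (0.01), and DTYMK, thymidylate kinase, 43.7 and 39.0 FPKM (-0.16, interval -0.37 to 0.05). The median of the group was 0.01. TYMS overlaps ENOSF1 on the opposite strand, which was 28.0 and 25.1 FPKM, and the strand setting of the counting was not given in the sources used here.

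The kinases were likewise close. Among nucleoside kinases, TK1, the thymidine kinase of the cytosol, was 77.3 and 71.5 FPKM (-0.11, interval -0.25 to 0.02) and TK2, that of mitochondria, 6.02 and 5.58 FPKM (-0.09). DCK, which salvages deoxycytidine, was 14.3 and 14.6 FPKM (0.03), and the uridine and cytidine kinases UCK1 and UCK2 were 11.5 and 12.4 FPKM (0.09) and 17.2 and 19.0 FPKM (0.14). NME1 was 177 and 180 FPKM (0.03, interval -0.09 to 0.14) and NME2 had a ratio of -0.02 (interval -0.08 to 0.04). NME1 and NME2 are neighbours whose coding sequences matched in 80.9% of 456 bases, and the read-through transcript NME1-NME2 was listed at 0.791 and 0 FPKM, so reads of one can be counted for the other.

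Levels within pairs of related genes, and of TK1 and TK2, which share a task, kept their order in both libraries in the 10 pairs plotted. SHMT2 exceeded SHMT1, MTHFD2 exceeded MTHFD2L, IMPDH2 exceeded IMPDH1, NME2 exceeded NME1 and UCK2 exceeded UCK1 on both diets. MTHFD1, PRPS1, ADSS, CTPS1 and TK1 were the higher of their pairs. On the normal diet MTHFD1 was only 1.04 times MTHFD1L, so the order of that pair is uncertain there. Beside MTHFD1 and MTHFD1L, and CTPS1 and CTPS2, the log2 ratios of MTHFD2 and MTHFD2L differed by more than counting error, by -0.68 (counting interval -1.18 to -0.19). MTHFD2L lay near 1 FPKM and passed the filter only through the depleted-diet library. For the 7 other plotted pairs the interval of the difference included 0; for PRPS1 and PRPS2, for example, it ran from -0.56 to 0.25, which does not show that they differed alike.

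**Figure D4:**
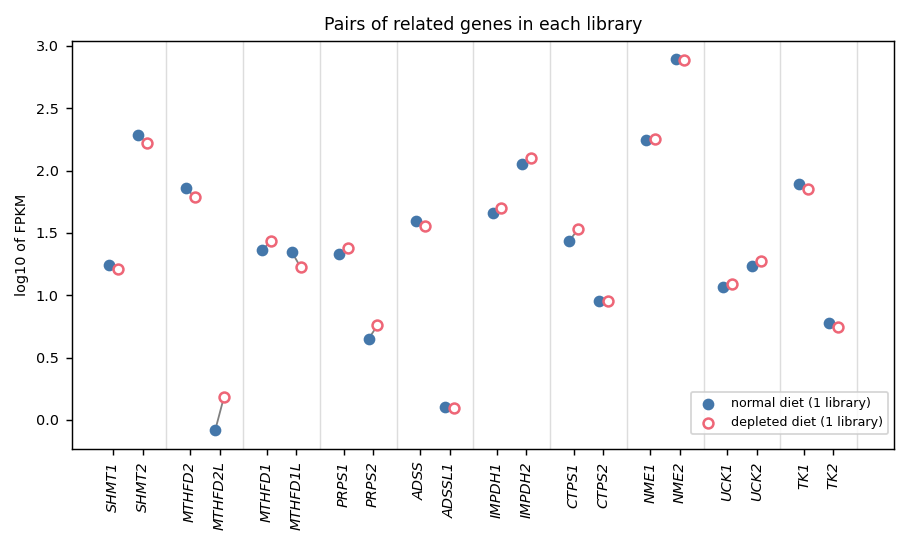
Levels of 10 pairs of genes, as log10 of FPKM, with the normal-diet library filled and the depleted-diet library open, and no error bars. The pairs are of related genes, except TK1 and TK2, which share a task. The higher gene of each pair is the same in both libraries by value. MTHFD1 and MTHFD1L are nearly level on the normal diet, so their order there is uncertain, and apart on the depleted diet.

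Other genes of the same pathways were taken from a list of 62 genes outside the set, all of them in the files, and 47 of these passed the filter. Of the 47, 17 were higher and 30 lower in the depleted-diet library, or 36.2% higher against 49.4% of all genes tested, and the median log2 ratio was -0.04. With a common sum 23 were higher and 24 lower, or 48.9% higher against 58.5% of all genes, and the median was -0.00. At least 25% higher was 1 gene, AMPD2, which deaminates AMP, at 12.9 and 18.4 FPKM (0.49), against the background of 6.94%. At least 20% lower were 2, against 7.15%, named here after their values were seen: CMPK2, a mitochondrial nucleotide kinase, at 5.19 and 3.52 FPKM (-0.45), and UPRT at 4.21 and 3.03 FPKM (-0.37).

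Of 7 regulators listed as known to act on these genes, 4 were higher and 3 lower in the depleted-diet library, with a median log2 ratio of 0.08. MYC, a transcription factor that drives nucleotide synthesis genes, was 76.1 and 106 FPKM (0.47). E2F1, a factor of S phase genes, was 20.3 and 19.1 FPKM (-0.08). ATF4, a factor of the amino acid response that can induce genes of mitochondrial one-carbon metabolism, was 266 and 246 FPKM (-0.11). MKI67, a marker of dividing cells, was 39.9 and 44.5 FPKM (0.15), and of 15 proliferation genes 9 were higher, the median being 0.05. Of all genes tested 49.4% were higher. Whether these regulators had a part in the values of the members was not tested.

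The state of the samples was read from marker lists, also chosen with earlier results of these data known. All 10 markers of colon epithelium were measured, with a summed level of 8517 FPKM for normal food and 7930 FPKM for depleted food. The 6 fibroblast markers summed to 4.42 and 3.86 FPKM, the 5 leukocyte markers to 1.16 and 1.99 FPKM with CD3E at 0 in both, and the 4 endothelial markers to 0.21 and 0.11 FPKM with KDR at 0 in both. Markers of adipocytes, muscle and erythroid cells summed to at most 0.51 FPKM per list in either library. The values are for human genes, so the amount of mouse host cells cannot be read from them. Of 10 early response genes, which react to tissue handling, 9 were lower in the depleted-diet library (median -0.26). All 9 hypoxia genes past the filter, of 10 listed, were lower as well (median -0.43). Of all 12414 genes tested, 6282 were lower. The part of either list in the values of the members was not tested.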

How the data were processed

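RNA sequencing libraries of HT-29 tumours, 1 per diet, were compared. The deposited values are FPKM, per the file headers. The submitters' processing notes list Cuffdiff 2.2.1, TopHat2 2.1.1, SAMtools 0.1.18, Bowtie2 2.2.8 and the build hg19, with no order or role. Libraries came from a kit that keeps the strand of mRNA, per the labels' protocols. Removal of mouse reads, the strand setting and the annotation were not given in the sources used here. Of the members 15 have pseudogene copies by name in GENCODE release 29, 14 overlap a gene on the opposite strand and 9 overlap a gene on the same strand.

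No count model was fitted, since FPKM are normalized values. The members, the lists and the pairs were chosen with earlier results of these data known. Every member is named, as are other pathway genes at least 25% higher or 20% lower with a mean of 5 FPKM or more, and MYC, E2F1, ATF4 and MKI67. Other genes of the naming rule are not reported here.

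Depth was read from steps in low values. FPKM times transcript length of genes with 1 transcript of at least 1000 nt in GENCODE gathered at 139.4 (SD 10.2, 90 genes) and 144.4 (SD 12.8, 117 genes) between 100 and 170, limits set with the values in view. The commonest depleted-to-normal ratio among 2924 low genes was 1.04 (512 of them), the relative value of 1 fragment. Fragments per gene were then approximated from 1 principal transcript, whose length may differ from that behind the FPKM. Among several, the longest coding sequence and then the longest transcript was preferred. Where the expressed transcript is shorter, fragments are overstated and the counting intervals are too narrow. Coding sequences were aligned with Biopython 1.88, in place of the planned protein comparison. Only the calling of genes as higher or lower was tried on simulated data, without spread between tumours, and the outcome is not reported here. The depth estimate, counting intervals, promoter matches and alignments were not tested in this way. Alternatives covered the pseudocount, filter, scaling, fold, the mean and subsets of members. Python 3.11.15, numpy 2.4.6, pandas 2.3.3 and matplotlib 3.10.9 were used.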

Additional observations from a re-analysis of the deposited data

How the results depend on the processing

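No paired analysis was possible because there is a single library for each diet, and for the same reason none could be left out. Leaving out SHMT2, MTHFD2 and MTHFD1L was chosen after seeing the data. It gave a median of 0.0397 for the members. Against 3 members past the line as higher (25%) and 2 as lower (20%), there were 5 higher with a pseudocount of 0.1 FPKM, 0 higher and 1 lower with 5 FPKM, 6 higher after scaling to a common sum, 1 lower with the filter at 5 FPKM, and 0 and 0 at 1.5-fold and at 2-fold. Of the other pathway genes, 1 higher and 2 lower, there were 3 higher without a filter, 0 lower with a pseudocount of 5 FPKM or the filter at 5 FPKM, and 0 and 0 at 1.5-fold and at 2-fold. A stricter fold, filter or larger pseudocount lets fewer genes pass by construction.

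With a common sum, which raises the median of all genes to 0.0401, medians were 0.0712 for the members, 0.051 for deoxynucleotide synthesis, 0.0519 for nucleoside diphosphate kinases and -0.0033 for the other pathway genes. The cytosolic one-carbon median was 0.075 without a filter, the mitochondrial one -0.0388 with the mean over genes, and that of the purine branches 0.0514 with the filter at 5 FPKM. The other 48 counts stayed within 1.5 times and the other 87 medians within the standard error over their genes, but 4 of these medians, reported as 0.06 or nearer to 0, took the other sign: -0.0415 for folate uptake, -0.0159 for deoxynucleotide synthesis and 0.0247 for the purine branches with the mean over genes, and 0.0282 for the purine branches with a common sum. The purine branches at 5 FPKM also changed sign, from -0.0046. For 57 single genes, 218 of 228 values kept their side of these lines, 6 passed it and 4 fell short of it, among them PPAT at 0.29 and SLC19A1 at 0.22 with a pseudocount of 5 FPKM. Of the 228 single-gene values 5 took the other sign, those of AMT, ADSSL1, GMPS, CTPS2 and NME2 with a common sum. Among members past the filter, depth limits FOLR1, MTHFD2L and ADSSL1 most.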
